A study of Homo sapiens and Mus musculus with 18 samples.

Results

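Fibronectin and 7 matricellular genes were followed across all human groups of this series. They are FN1 (fibronectin), TNC (tenascin C), POSTN (periostin), THBS1 and THBS2 (thrombospondins), SPARC (osteonectin), SPP1 (osteopontin) and MGP (matrix Gla protein). They were chosen by name, for what the proteins do, but with earlier results of these data known. They make up 8 of the 63677 gene IDs in the 7 files that hold 1 human library each and 8 of the 56299 gene IDs in a table of 6 human libraries. Each of the 8 genes was measured in every library and passed the filter on low counts in both sets.

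The study made mesothelium, the cell layer that lines the body cavities, from 1 human embryonic stem cell line, WA09, and sequenced polyadenylated RNA. WA09 cells first became splanchnic mesoderm under WNT3A and BMP4, and what follows starts from there. MesoT cells, the labels' name for the mesothelial product, had WNT3A at 25 ng/ml, BMP4 at 50 ng/ml and all-trans retinoic acid at 4 µM and were taken on day 18 or day 22. MesoT FCS cells were MesoT cells kept on plastic in 10% fetal bovine serum with FGF2 at 8 ng/ml and taken at passage 4. MLC, for mesothelium-like cells, came from splanchnic mesoderm replated without FGF2 or Activin A, with retinoic acid at 4 µM and the TGF-beta receptor inhibitor SB431542 at 20 µM, for 18 days in all. MesoT-derived MLC were MesoT cells replated in that same medium. Smooth muscle was splanchnic mesoderm left in culture. Each group held 2 libraries except smooth muscle, which held 1. The labels do not say that the libraries of a group came from separate cultures, so p-values here measure the spread between these libraries, which may be technical. The libraries were sequenced at 2 facilities and at 2 read lengths. The labels do not tie them to libraries, so facility and group cannot be told apart. All groups share 1 cell line, which limits them as a model of other donors.

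Fibronectin is a large secreted glycoprotein that cells assemble into fibrils through integrins, and other matrix proteins attach to those fibrils. Matricellular proteins are secreted into the matrix too, but act mainly as modulators of adhesion, growth factors and collagen assembly rather than as its scaffold. Mesothelial cells that take on a mesenchymal form are known to raise fibronectin and several matricellular genes, and TGF-beta signalling is a known inducer of many of them.

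The promoters of 4 of the genes are given here because TNC, THBS1 and THBS2 were high and low in much the same libraries of the one-library files and POSTN was not. Each is the 250 bases before the gene's start, 5′ to 3′ on the gene's strand, from RefSeq (GRCh38.p14). 7 of the 8 genes had an entry in that table, and MGP did not. Capitals mark matches, on either strand, to the TATA box TATAAA, to the SMAD element CAGAC and to TGANTCA, the AP-1 site.
TNC (chr9:115118158-115118407, minus strand): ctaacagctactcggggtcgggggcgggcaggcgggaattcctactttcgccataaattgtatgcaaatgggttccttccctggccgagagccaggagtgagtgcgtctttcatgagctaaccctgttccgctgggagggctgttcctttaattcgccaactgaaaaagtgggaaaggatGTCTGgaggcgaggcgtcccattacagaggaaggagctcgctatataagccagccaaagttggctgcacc
THBS1 (chr15:39580829-39581078, plus strand): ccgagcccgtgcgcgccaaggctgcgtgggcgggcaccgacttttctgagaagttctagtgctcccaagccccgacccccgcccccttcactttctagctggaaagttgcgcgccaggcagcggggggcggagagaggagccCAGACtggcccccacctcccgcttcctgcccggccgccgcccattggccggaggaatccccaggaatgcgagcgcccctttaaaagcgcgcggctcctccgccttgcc
THBS2 (chr6:169253847-169254096, minus strand): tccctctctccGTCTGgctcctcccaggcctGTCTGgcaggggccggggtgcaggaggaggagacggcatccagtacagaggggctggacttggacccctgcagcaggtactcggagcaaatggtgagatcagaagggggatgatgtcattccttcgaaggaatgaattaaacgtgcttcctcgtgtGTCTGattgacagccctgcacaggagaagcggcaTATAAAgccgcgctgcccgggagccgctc
POSTN (chr13:37598769-37599018, minus strand): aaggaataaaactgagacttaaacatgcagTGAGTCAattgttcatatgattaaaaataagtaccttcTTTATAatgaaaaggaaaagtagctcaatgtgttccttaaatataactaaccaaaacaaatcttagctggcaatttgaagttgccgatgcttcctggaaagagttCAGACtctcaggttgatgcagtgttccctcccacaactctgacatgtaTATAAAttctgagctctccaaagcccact

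The POSTN window was poor in G and C, at 36.4% and 1 CpG, and it held a TATAAA from 29 bases before the start, its reverse complement further upstream, 1 CAGAC and a TGAGTCA. THBS2 also had a TATAAA from 29 bases before the start, with 3 matches to the SMAD element on the other strand (GTCTG). TNC had 1 GTCTG and THBS1 had 1 CAGAC, with GC contents of 54.8% and 69.6%. Among 27305 RefSeq promoters of the same length, 11.1% held a TATAAA, 37.8% a CAGAC and 6.6% a TGANTCA on either strand, and the median GC content was 58%. Of the other genes with an entry, FN1 (76.4% GC, 32 CpG) and SPARC (59.2% GC, 7 CpG) held none of these letters and SPP1 (44.8% GC, 3 CpG) held 1 GTCTG. A match describes the letters only, and a window without TATAAA can hold near variants, as those of FN1 and TNC held TATAAG.

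Levels below are deposited counts per gene scaled to library size as counts-per-million (CPM) with edgeR's TMM factors. CPM carries no correction for transcript length, so levels are compared between libraries and never between genes. The one-library files and the table were scaled and tested apart, and day 18 MesoT stands in both. Its 8 genes differed between the sets by 0.09 to 0.37 on the log2 CPM scale, and the table values of day 18 add no further replicate. Total counts per library ran from 21148477 to 70679258 in the one-library files, highest in the MLC libraries, and from 24137663 to 31435480 in the table.

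**Figure D1:**
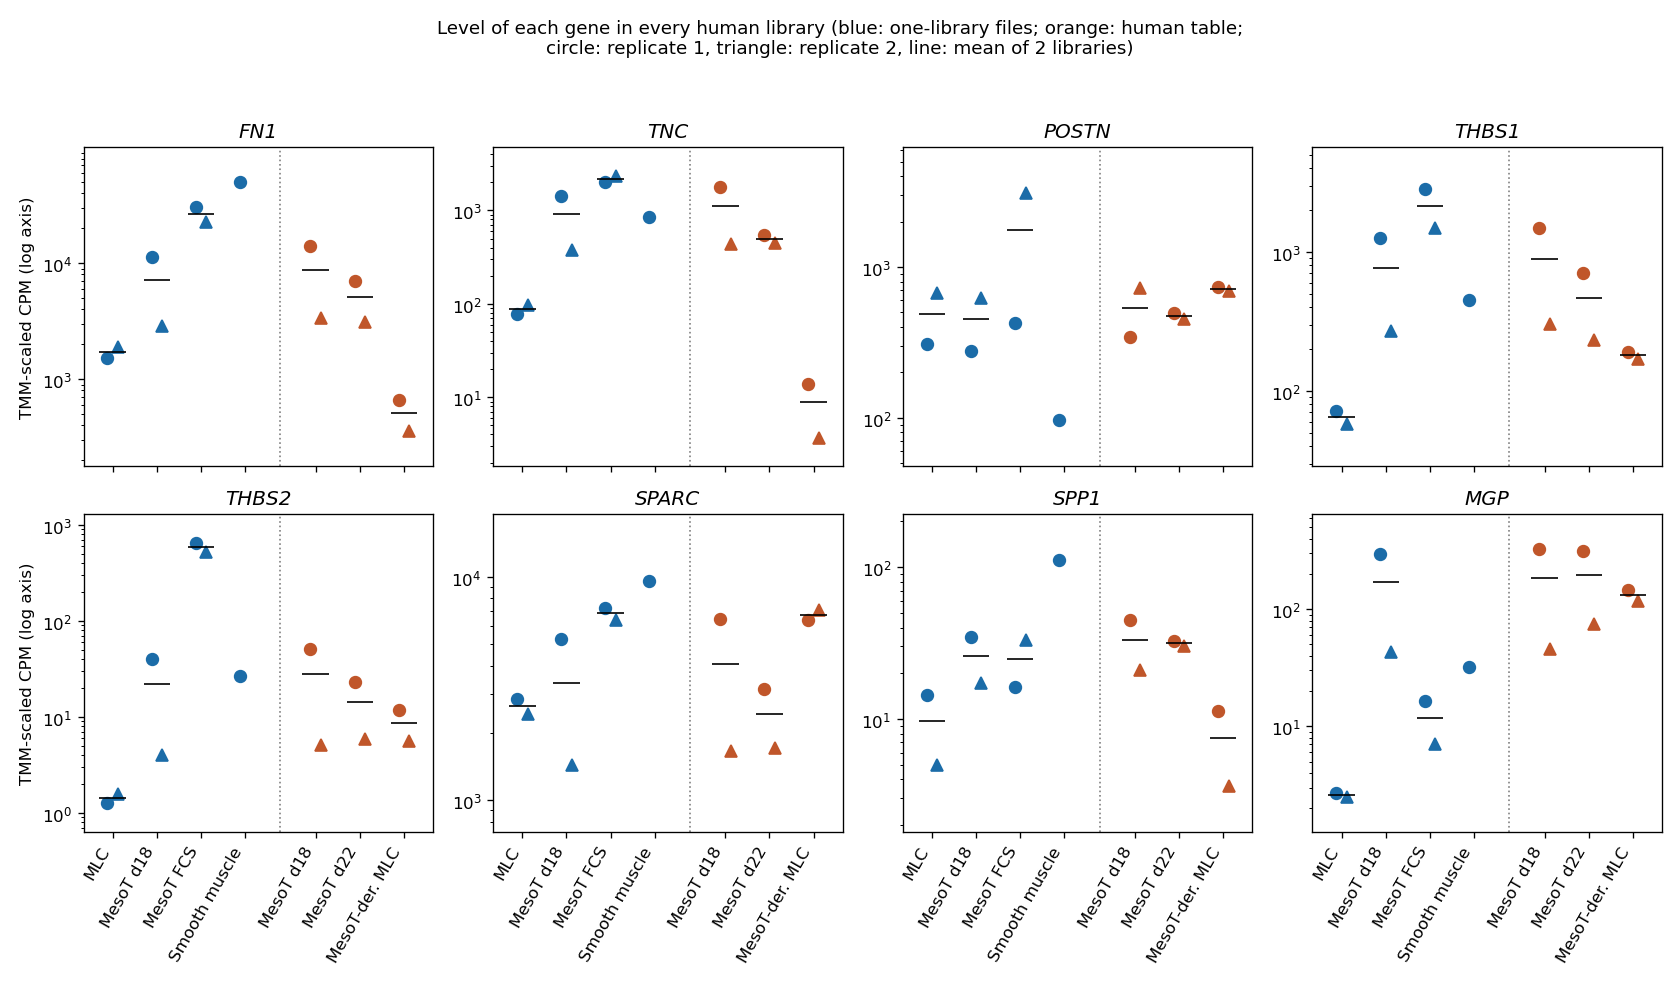
TMM-scaled CPM (log axis) of each gene in every human library, by group, with the one-library files in blue, the table in orange and the mean of 2 libraries as a line. FN1, TNC, THBS1 and THBS2 of the one-library files lie lowest in the MLC libraries and higher in the MesoT FCS libraries than at day 18, while POSTN is lowest in the smooth muscle library and shows no such order.

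Together the 8 genes took 3.08% and 3.59% of all counts in the MesoT FCS libraries and 0.517% and 0.553% in the MLC libraries. The day 18 MesoT libraries stood between them, far apart from each other, at 2.13% and 0.732%. The library labelled smooth muscle had the highest share, 5.52%, of which FN1 alone made 4.51%. In the table the share was 2.195% and 0.739% at day 18, 1.26% and 0.678% at day 22 and 0.758% and 0.788% in the MesoT-derived MLC. The shares also depend on the length of each transcript.

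**Figure D2:**
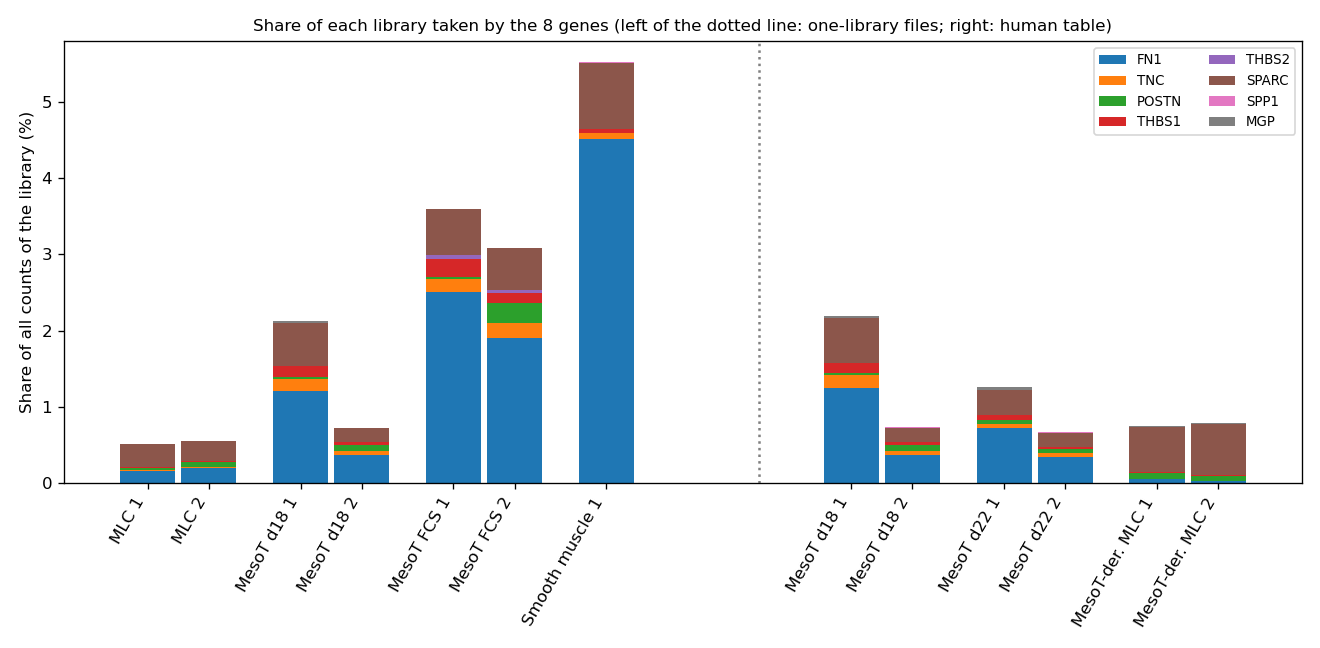
Share of all counts of each library taken by the 8 genes, as stacked bars in percent, with one-library files left of the dotted line and the table right of it. The bars run from 0.517% in MLC replicate 1 to 5.52% in the smooth muscle library, and day 18 replicate 1 stands well above replicate 2 in both sets.

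FN1 encodes the scaffold on which several of the other proteins gather. In the one-library files its level was 1526 and 1911 CPM in MLC, 11333 and 2874 in day 18 MesoT, 30697 and 22477.5 in MesoT FCS and 49793 in the library labelled smooth muscle. These groups did not overlap, although the second day 18 library lay much nearer to MLC than the first. FN1 was lower in MLC than in MesoT FCS (log2 fold change -3.95 ± 0.72 SE, edgeR adjusted p = 0.00708) and higher in smooth muscle than in MLC (4.86 ± 0.80, edgeR adjusted p = 0.00794). Neighbours in the order did not pass the test: MLC against day 18 gave -2.05 ± 0.67 (edgeR adjusted p = 0.0739), MesoT FCS against day 18 gave 1.90 ± 0.66 (0.0802), and smooth muscle against MesoT FCS gave 0.91 ± 0.77 (0.440). Without MLC replicate 1 or replicate 2 the call against MesoT FCS was lost (edgeR adjusted p = 0.0668 and 0.0611), and so was that of smooth muscle against MLC (0.0745 and 0.0666). The comparisons with day 18 depended on which day 18 library was kept. Without replicate 2, FN1 was lower in MLC (-2.73, edgeR adjusted p = 0.00499), and without replicate 1 it was higher in MesoT FCS (3.17, edgeR adjusted p = 0.00654). FN1 also passed the test in both of these comparisons with DESeq2 (adjusted p = 0.00457 and 0.00759) and with no filter on low counts in edgeR (adjusted p = 0.0177 and 0.0230).

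The table showed FN1 at 14110.4 and 3343 CPM at day 18, 7031 and 3119 at day 22, and 661 and 359 in MesoT-derived MLC. Both MesoT-derived MLC libraries lay below every MesoT library of the table. Against the mean of both MesoT days FN1 was lower in MesoT-derived MLC (log2 fold change -3.71 ± 0.81 SE, edgeR adjusted p = 0.0442). That call was lost without day 22 replicate 1 or 2 (edgeR adjusted p = 0.101 and 0.0869) and without MesoT-derived MLC replicate 1 or 2 (0.167 and 0.253). As these are bulk libraries, fewer cells that make a transcript and less RNA per cell cannot be told apart.

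TNC encodes a large hexameric glycoprotein of developing and wounded tissue that can loosen cell attachment to fibronectin. Its level was 78.3 and 96.3 CPM in MLC, 1443 and 376 in day 18 MesoT, 2022 and 2360.4 in MesoT FCS and 859 in the library labelled smooth muscle. The MLC libraries were the lowest, and the smooth muscle library fell between the 2 day 18 libraries. TNC was lower in MLC than at day 18 (log2 fold change -3.38 ± 0.64 SE, edgeR adjusted p = 0.0150) and lower in MLC than in MesoT FCS (-4.65 ± 0.68, edgeR adjusted p = 0.00330), and higher in smooth muscle than in MLC (3.30 ± 0.70, edgeR adjusted p = 0.0169). The rise from day 18 to MesoT FCS did not pass (1.27 ± 0.59, edgeR adjusted p = 0.154) but passed without day 18 replicate 1 (2.50, edgeR adjusted p = 0.00472). The call against day 18 was lost without MLC replicate 1 or 2 (edgeR adjusted p = 0.126 and 0.109), and so was that of smooth muscle against MLC (0.109 and 0.0931). The call against MesoT FCS stood without any 1 library.

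In the table TNC stood at 1800 and 436 CPM at day 18, 541 and 453 at day 22, and 13.9 and 3.70 in MesoT-derived MLC. The latter libraries were far below the rest, though they were also 3.70-fold apart. TNC was lower in MesoT-derived MLC than in MesoT (log2 fold change -6.41 ± 0.98 SE, edgeR adjusted p = 0.0224). The call was lost without day 22 replicate 1 or 2 (edgeR adjusted p = 0.0726 and 0.0650) or without MesoT-derived MLC replicate 1 or 2 (0.0645 and 0.147).

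THBS1 encodes thrombospondin 1, which binds integrins and CD47, restrains angiogenesis and can release latent TGF-beta. Its level was 72.2 and 57.9 CPM in MLC, 1251 and 269 in day 18 MesoT, 2819 and 1479 in MesoT FCS and 451 in the library labelled smooth muscle. MLC lay below all other one-library groups, and the smooth muscle library again fell between the 2 day 18 libraries. THBS1 was lower in MLC than at day 18 (log2 fold change -3.55 ± 0.77 SE, edgeR adjusted p = 0.0237) and lower in MLC than in MesoT FCS (-5.05 ± 0.83, edgeR adjusted p = 0.00495). The step from day 18 to MesoT FCS was not called (1.50 ± 0.71, edgeR adjusted p = 0.160). It was called without day 18 replicate 1 (2.96, edgeR adjusted p = 0.0118). THBS1 was higher in smooth muscle than in MLC (2.79 ± 0.83, edgeR adjusted p = 0.0455). THBS1 without MLC replicate 1 or 2 was not called against day 18 (edgeR adjusted p = 0.143 and 0.164) or in smooth muscle against MLC (0.163 and 0.191), and without MLC replicate 2 it was not called against MesoT FCS (0.0521).

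THBS2 encodes thrombospondin 2, a related protein known for its part in collagen fibril assembly. Its level was 1.26 and 1.57 CPM in MLC, 40.4 and 4.00 in day 18 MesoT, 649.5 and 524 in MesoT FCS and 26.5 in the library labelled smooth muscle. The MesoT FCS libraries stood far above every other library of the set, and the 2 day 18 libraries differed about 10-fold. THBS2 was higher in MesoT FCS than at day 18 (log2 fold change 4.72 ± 1.03 SE, edgeR adjusted p = 0.0234), lower in MLC than at day 18 (-3.98 ± 1.02, 0.0378), and lower in MLC than in MesoT FCS (-8.70 ± 1.24, 0.00310). THBS2 was also higher in smooth muscle than in MLC (4.23 ± 1.11, edgeR adjusted p = 0.0320), and smooth muscle against MesoT FCS did not pass (-4.47 ± 1.39, edgeR adjusted p = 0.0752), though it did with DESeq2 (adjusted p = 0.000161). The call of MesoT FCS against day 18 was lost without MesoT FCS replicate 1 or 2 (edgeR adjusted p = 0.0707 and 0.0620). The calls of MLC against day 18 (edgeR adjusted p = 0.212 and 0.191) and of smooth muscle against MLC (0.156 and 0.140) were lost without MLC replicate 1 or 2. Only the difference between MLC and MesoT FCS, among these 4 calls, stood without any 1 library.

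In the table neither thrombospondin passed the test between MesoT-derived MLC and MesoT. THBS1 stood at 1484 and 301 CPM at day 18, 703 and 233 at day 22, and 190.2 and 171 in MesoT-derived MLC (log2 fold change -1.84 ± 0.76 SE, edgeR adjusted p = 0.163), and DESeq2 called it (adjusted p = 0.0318). The MesoT-derived MLC libraries were the lowest of the 6. THBS2 stood at 50.3 and 5.06 CPM at day 18, 22.9 and 5.81 at day 22, and 11.8 and 5.61 in MesoT-derived MLC (-1.20 ± 0.99, edgeR adjusted p = 0.453). Here the groups overlapped, since replicate 2 of each MesoT day was as low as the MesoT-derived MLC.

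POSTN encodes periostin, which links tenascin C, fibronectin and collagen, and is a known product of activated fibroblasts. Its level was 306 and 674 CPM in MLC, 279 and 621 in day 18 MesoT, 427 and 3100 in MesoT FCS and 96.0 in the library labelled smooth muscle. The high value of MesoT FCS came from replicate 2 alone, and replicate 1 lay within the range of MLC and day 18. No comparison of POSTN passed the test. MLC against day 18 gave 0.12 ± 0.92 (edgeR adjusted p = 0.937), MesoT FCS against day 18 gave 1.97 ± 0.95 (0.164), and smooth muscle against MesoT FCS gave -4.20 ± 1.42 (0.0913). Without MesoT FCS replicate 1, POSTN was called lower in MLC (-2.66, edgeR adjusted p = 0.0346) and in smooth muscle (-5.02, 0.0428), each against MesoT FCS, and without replicate 2 the first of these turned to 0.20. In DESeq2 smooth muscle against MesoT FCS passed (adjusted p = 0.000521). In the table POSTN stood at 342 and 722 CPM at day 18, 492 and 451 at day 22, and 739 and 694 in MesoT-derived MLC. The MesoT-derived MLC values overlapped those of day 18 (log2 fold change 0.52 ± 0.31 SE against MesoT, edgeR adjusted p = 0.312).

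SPARC encodes a collagen-binding glycoprotein that takes part in collagen processing and counters cell spreading. Its level was 2828 and 2426 CPM in MLC, 5242 and 1439 in day 18 MesoT, 7281 and 6419 in MesoT FCS and 9544 in the library labelled smooth muscle. Both MLC libraries lay between the 2 day 18 libraries. No comparison of SPARC passed in edgeR with the filter on low counts: MLC against day 18 gave -0.35 ± 0.58 (adjusted p = 0.696), MLC against MesoT FCS gave -1.38 ± 0.59 (0.0973), and smooth muscle against MLC gave 1.86 ± 0.68 (0.0799). The direction between MLC and day 18 was set by the choice of day 18 library. SPARC was called lower in MLC without day 18 replicate 2 (-1.002, edgeR adjusted p = 0.0289) and called higher without replicate 1 (0.96, edgeR adjusted p = 0.0446). MLC against MesoT FCS passed with DESeq2 (adjusted p = 0.0400) and with no filter in edgeR (adjusted p = 0.0479), as did smooth muscle against MLC (0.0250 and 0.0296). Without day 18 replicate 1, SPARC was called higher in MesoT FCS (2.21, edgeR adjusted p = 0.00622) and in smooth muscle (2.71, 0.0114), each against day 18. In the table SPARC stood at 6497 and 1667 CPM at day 18, 3150 and 1708 at day 22, and 6373 and 7129 in MesoT-derived MLC. MesoT-derived MLC were as high as the first day 18 library and above the other MesoT libraries (log2 fold change 1.10 ± 0.56 SE, edgeR adjusted p = 0.240). Without day 18 replicate 1 this rise was called (1.74, edgeR adjusted p = 0.0425).

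SPP1 encodes osteopontin, a secreted phosphoprotein that binds CD44 and integrins and is known from bone and from macrophages. Its level was 14.47 and 4.99 CPM in MLC, 34.9 and 17.2 in day 18 MesoT, 16.1 and 33.3 in MesoT FCS and 112 in the library labelled smooth muscle. Smooth muscle was the highest library, and day 18 and MesoT FCS covered the same range. SPP1 was higher in smooth muscle than in MLC (log2 fold change 3.52 ± 0.74 SE, edgeR adjusted p = 0.0166), a call lost without MLC replicate 2 (edgeR adjusted p = 0.0713). It did not pass in smooth muscle against day 18 (2.10 ± 0.72, edgeR adjusted p = 0.119) or MesoT FCS (2.18 ± 0.73, 0.0885), but did in both with DESeq2 (adjusted p = 0.0370 and 0.0232). Beside this, the macrophage marker list summed to 28.4 CPM in the smooth muscle library (1 of 8 genes at 0). It summed to between 1.28 and 3.48 CPM in the other one-library files (1 to 3 at 0). The day 18 libraries had 3.48 and 1.88 CPM in these files but 12.4 and 13.7 in the table, so sums this low depend on the set. The part of this list in the SPP1 level was not tested. In the table SPP1 stood at 45.0 and 21.0 CPM at day 18, 32.6 and 30.3 at day 22, and 11.3 and 3.59 in MesoT-derived MLC. The MesoT-derived MLC lay below all 4 MesoT libraries (-2.11 ± 0.56, edgeR adjusted p = 0.0649), and DESeq2 called SPP1 lower there (adjusted p = 0.00117). MLC against day 18 gave -1.42 ± 0.63 (edgeR adjusted p = 0.153) with no overlap.

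MGP encodes matrix Gla protein, which binds BMPs and keeps soft tissue from calcifying. Its level was 2.70 and 2.49 CPM in MLC, 297 and 43.3 in day 18 MesoT, 16.5 and 7.04 in MesoT FCS and 32.4 in the library labelled smooth muscle. Day 18 was the highest group, so the order differed from that of FN1, TNC and the thrombospondins. MGP was lower in MLC than at day 18 (log2 fold change -6.03 ± 1.04 SE, edgeR adjusted p = 0.0111) and lower in MesoT FCS than at day 18 (-3.85 ± 0.94, edgeR adjusted p = 0.0316). It was higher in smooth muscle than in MLC (3.64 ± 1.02, edgeR adjusted p = 0.0390), and MLC against MesoT FCS did not pass (-2.19 ± 0.90, edgeR adjusted p = 0.0881), though it did with DESeq2 (adjusted p = 0.0195) and with no filter in edgeR (adjusted p = 0.0327). The call of MLC against day 18 was lost without MLC replicate 1 or 2 (edgeR adjusted p = 0.0990 and 0.102), and so was that of smooth muscle against MLC (0.161 and 0.168). Without MesoT FCS replicate 1 or 2 that of MesoT FCS against day 18 was lost (edgeR adjusted p = 0.0881 and 0.130). In the table MGP stood at 326 and 46.0 CPM at day 18, 317 and 75.1 at day 22, and 146 and 118 in MesoT-derived MLC. The MesoT-derived MLC lay inside the MesoT range (-0.53 ± 0.86, edgeR adjusted p = 0.706).

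The comparison of MLC with day 18 MesoT sets a product grown with the TGF-beta receptor inhibitor beside one grown with WNT3A and BMP4, and the media differ in all 3 agents. TNC, THBS1, THBS2 and MGP were lower in MLC and none of the 8 was higher. In all, 24.6% of 23049 tested genes were called, 16.8% lower and 7.83% higher. The median log2 fold change was -2.71 over the 8 genes and -0.03 over all tested genes. Without MLC replicate 1 or replicate 2, 0 of the 8 were called in edgeR, and the calls over all genes fell from 5666 to 1720 and 1714. Without day 18 replicate 1, 5 of the 8 were called, SPARC as higher, beside 5938 of 22761 genes, and without replicate 2, 6 were called, SPARC as lower, beside 6601 of 22274.

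MesoT FCS against day 18 MesoT compares MesoT cells before and after passages in serum. THBS2 was higher and MGP lower in MesoT FCS, and the other 6 were not called. Of all tested genes 27.3% were called, 13% higher and 14.4% lower. The median log2 fold change of the 8 was 1.38 against -0.16 over all tested genes. Which of the 8 passed depended on the library left out, and so did the calls over all genes. Without day 18 replicate 1 the log2 fold change was 3.17 for FN1, 2.50 for TNC, 2.96 for THBS1 and 7.15 for THBS2. It was 2.21 for SPARC, 0.48 for SPP1 and -1.92 for MGP. The calls of THBS2 and MGP were lost without MesoT FCS replicate 1 or 2.

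MLC against MesoT FCS sets 2 of the 3 one-library groups with 2 libraries side by side. By the share of counts that the 8 genes took, they were the lowest and the highest of these 3. FN1, TNC, THBS1 and THBS2 were lower in MLC, beside 48.9% of all tested genes called, 26.3% lower and 22.6% higher. The 8 genes had a median log2 fold change of -3.07 and all tested genes one of 0.00. Without MLC replicate 2 this fell to 2 called, TNC and THBS2. The 3 comparisons among MLC, day 18 and MesoT FCS share libraries, so their values are not independent.

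The library labelled smooth muscle had FN1, TNC, THBS1, THBS2, SPP1 and MGP higher than MLC, 6 of the 8, where 34.3% of all tested genes were called, 21.3% higher and 13% lower. Only 1 library stands for smooth muscle, and its spread is taken to be like that of the other groups. Without MLC replicate 1 and replicate 2, 1 (SPP1) and 0 of the 6 calls were left. Against day 18 and against MesoT FCS edgeR called 0 of the 8, where 8.67% (5.08% higher, 3.58% lower) and 17.9% (10.3% higher, 7.57% lower) of all tested genes were called. At an unadjusted p under 0.05, FN1 and SPP1 passed against day 18 and POSTN, THBS2 and SPP1 against MesoT FCS, as did 7002 and 8247 of the 23049 tested genes. DESeq2 called 2 (FN1 and SPP1) and 4 (POSTN, THBS1, THBS2 and SPP1) of the 8, beside 4614 and 6059 of 38368 genes with any count. The log2 fold changes against day 18 depended on the day 18 library left out. FN1 gave 4.09 without day 18 replicate 1 and 2.13 without replicate 2, and SPARC 2.71 and 0.86. THBS2 gave 2.71 and -0.61, and MGP -0.44 and -3.20. Both of these fits also called more genes over all. Beside day 18 and MesoT FCS, its markers did not single this library out as smooth muscle. Its smooth muscle list summed to 1178 CPM, between day 18 replicate 1 at 1651 and replicate 2 at 276. MYH11, a contractile myosin that defines the type, stood at 8.63 CPM against 9.12 and 4.72 in those 2 libraries. The median log2 fold change of the list was 0.25 against day 18, -1.63 against MesoT FCS and 4.03 against MLC. The basal epidermis list (0 of 8 genes at 0) summed to 2894 CPM in the smooth muscle library, with KRT5 at 870.3 CPM. It summed to between 1.56 and 16.8 CPM in the other 6 libraries, with 0 to 5 of its genes at 0. The part of these cells in the levels above was not tested.

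**Figure D3:**
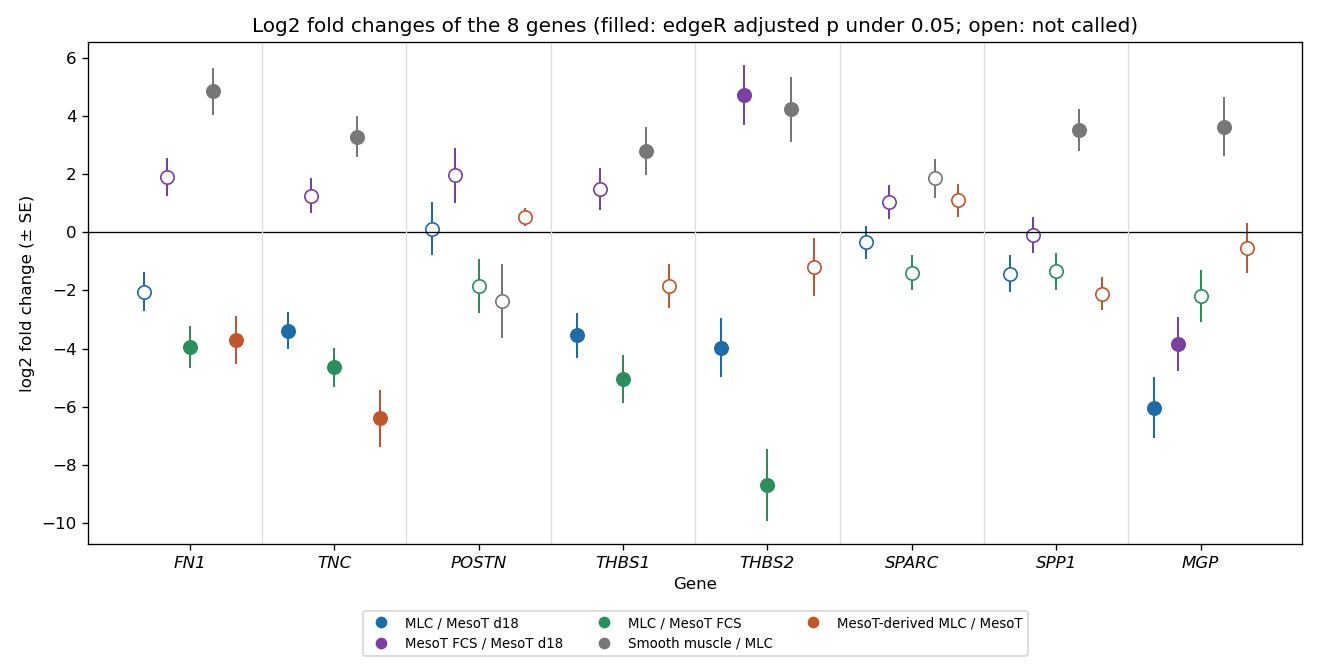
Log2 fold change (± SE) of the 8 genes in 5 comparisons, with filled points for an edgeR adjusted p under 0.05 and open points for the rest. The 4 filled green points (MLC against MesoT FCS) run from -8.70 for THBS2 to -3.95 for FN1, and POSTN and SPARC have open points in all 5 comparisons.

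MesoT-derived MLC against MesoT asks how the same genes stood when cells that were already MesoT went into the MLC medium. FN1 and TNC were lower, and 6 were not called, beside 9.94% of 22316 tested genes called, 3.32% lower and 6.63% higher. The median log2 fold change was -1.52 over the 8 and -0.05 over all tested genes. FN1, TNC, THBS1 and SPP1 were below every MesoT library. How many of all tested genes lay apart in this way was not counted, so the number carries no weight. None of the 8 passed without day 22 replicate 1, day 22 replicate 2 or either MesoT-derived MLC library, and over all genes the calls then ran from 0 to 309. DESeq2 called 4 of the 8 (FN1, TNC, THBS1 and SPP1). Markers of other cells moved with this comparison. The hepatocyte list summed to 114 and 259 CPM in MesoT-derived MLC (1 and 0 of 10 genes at 0) and to between 5.30 and 9.16 in the 4 MesoT libraries (0 to 3 at 0), and 6 of its 8 tested genes were called higher. The gut epithelium list summed to 24.2 and 117 CPM (0 of 8 genes at 0) against 2.27 to 5.45 in MesoT (0 to 3 at 0), with 6 of 7 tested genes higher. Their part in the levels of the 8 genes was not tested. The MLC and MesoT-derived MLC routes were measured in different sets, and the difference between them was not tested.

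Between day 22 and day 18 of MesoT edgeR called 0 of the 8 and 0 of 22316 genes (0%), with 171 genes at an unadjusted p under 0.05. DESeq2 also called 0, with 200 at an unadjusted p under 0.05. Log2 fold changes of the 8 ran from -1.17 ± 0.80 for TNC to 0.08 ± 0.97 for MGP, each with an edgeR adjusted p of 1.

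For each of the 8 genes the day 18 replicates lay further apart than those of the median gene. In the one-library files replicate 1 exceeded replicate 2 by 1.98 on the log2 scale for FN1, 1.94 for TNC, 2.22 for THBS1, 3.32 for THBS2, 1.86 for SPARC, 1.02 for SPP1 and 2.78 for MGP. POSTN went the other way, by -1.15. The median absolute difference over all tested genes was 0.48, and 1.39% of them were at least as far apart as THBS2, 2.84% as MGP and 7.37% as FN1. SPP1 and POSTN were less unusual, at 23.7% and 20.1%. For FN1, THBS1, THBS2, SPARC and MGP the day 22 replicates in the table differed in the same direction, by 1.17, 1.59, 1.97, 0.88 and 2.08. TNC and SPP1 kept the sign too, but were only 0.26 and 0.10 apart. POSTN, at 0.13, had the opposite sign to day 18. In MesoT FCS it was POSTN that stood out (-2.86, with 2.50% of tested genes as far apart), and in MLC it was SPP1 (1.53, 1.30%) and POSTN (-1.14, 3.71%). In MesoT-derived MLC the replicates of TNC were 1.89 apart (1.90% of tested genes as far apart) and those of SPP1 1.64.

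**Figure D4:**
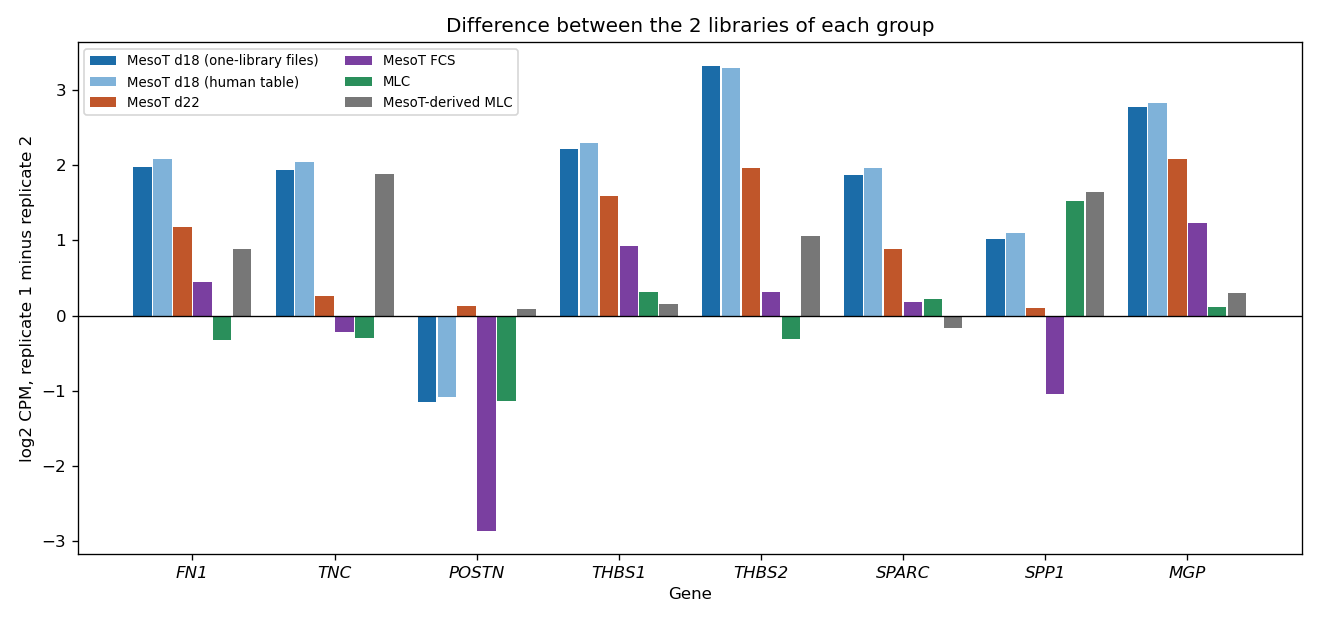
Difference in log2 CPM between replicate 1 and replicate 2 of each group, by gene, with 1 bar colour per group. At day 18 the bars of 7 genes point up, to 3.32 for THBS2 in the one-library files, and POSTN points down, while the MesoT FCS bar of POSTN reaches -2.86.

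Marker lists moved with the same libraries. The smooth muscle list (8 of 8 genes detected in each library) summed to 1651 and 276 CPM in the 2 day 18 libraries, 7335 and 1775 in MesoT FCS, 227 and 212 in MLC, and 1530 and 272 at day 22. So day 18 replicate 1, high for 7 of the 8 genes, was also high for this list. The mesenchyme list summed to 35029 and 17350 CPM at day 18, 45180 and 64326 in MesoT FCS, 19114 and 22687 in MLC and 74322 in smooth muscle. WT1, the transcription factor used to mark mesothelium, was 25.9 and 46.2 CPM at day 18, 217 and 148 in MLC, 5.58 and 3.41 in MesoT FCS and 0.0407 in smooth muscle. The summed CPM of the whole mesothelium list of 10 genes did not follow WT1. It was 4694 and 2802 CPM at day 18, 3726 and 2821 in MLC, 6242 and 3095 in MesoT FCS and 5289 in smooth muscle (1 gene at 0 in the first of these libraries and 0 in the others). KRT8 and KRT18 made 2926 and 1350 of the 4694 CPM. By calls, 3 of the 10 were higher and 0 lower in MLC against day 18 (median log2 fold change 0.69). In MLC against MesoT FCS 5 were higher and 1 lower (2.34), and in MesoT FCS against day 18 1 and 3 (-1.12). In smooth muscle against day 18, 3 were higher and 2 lower (0.49). The shares of all tested genes are given above. MLC had higher sums of the hepatocyte list, at 148 and 66.6 CPM against 3.71 and 4.75 at day 18, with ALB, the albumin gene, at 1.72 and 0.883 CPM. In MLC 0 of its 10 genes were at 0, and 4 and 1 were in the 2 day 18 libraries, and 5 of the 9 tested were called higher. The gut epithelium list summed to 51.4 and 31.0 CPM in MLC (0 of 8 genes at 0) and to 9.67 and 13.2 at day 18 (3 at 0 in each), with 4 of the 7 tested called higher. The part of any of these cells in the levels of the 8 genes was not tested. WT1, ALB, KRT5 and MYH11 were picked with their values known.

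Some genes of the group followed each other across libraries and others did not. Over the 7 one-library files the log2 CPM of TNC and THBS1 had a Pearson r of 0.977, THBS1 and THBS2 one of 0.948, and TNC and THBS2 one of 0.939. Over the 6 table libraries the same pairs gave 0.771, 0.888 and 0.490. FN1 went with TNC in both sets (0.873 and 0.975) and with SPARC in the one-library files alone (0.906 and -0.336). POSTN lay between -0.40 and 0.30 with the other 7 genes over the one-library files. Over the 6 table libraries POSTN gave -0.80 with FN1 and THBS1 and -0.74 with TNC and SPP1. With THBS2, MGP and SPARC it gave -0.70, -0.57 and 8.65e-05 there. The points are libraries of few groups that share depth and culture, so these values describe the libraries and carry no test.

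Among 9287 well-measured genes, those most like each member over the 7 one-library files were found by the same correlation. For FN1 they were PDIA5 (0.999) and LOX, the collagen cross-linking enzyme lysyl oxidase (0.996), with 0.706 and 0.740 over the table. SPARC was closest to RAB1A (0.994) and PREB (0.990), with 0.702 and 0.924 over the table. TNC was closest to PTRH2 (0.988) and 0.855 over the table. For POSTN (SUPT4H1, 0.962), THBS1 (PROCR, 0.992), THBS2 (VPS9D1-AS1, 0.994), SPP1 (TRIM39, 0.949) and MGP (VASH1-AS1, 0.979) the closest gene had a value in the table of -0.51, 0.29, -0.02, 0.02 and -0.82.

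A further 4 gene lists of the same biology were counted. Of 30 other matricellular genes 24 were tested. The share of all tested genes called, against which the counts of these lists are to be read, was 7.83% higher and 16.8% lower in MLC against day 18, 13% and 14.4% in MesoT FCS against day 18, and 22.6% and 26.3% in MLC against MesoT FCS. In MLC against day 18 none of the 24 was higher and 5 were lower, with a median log2 fold change of -0.58. In MesoT FCS against day 18, 3 were higher and 4 lower, near those shares, and in MLC against MesoT FCS 5 were higher and 8 lower. TGFBI, a TGF-beta induced adhesion protein, stood at 418 and 433 CPM at day 18, 4931 and 15419.6 in MesoT FCS, and 256 and 330 in MLC. The MesoT FCS libraries were far above the rest. TGFBI was higher in MesoT FCS than at day 18 (4.58 ± 0.61, edgeR adjusted p = 0.00746) and lower in MLC than in MesoT FCS (-5.12 ± 0.63, edgeR adjusted p = 0.00190). With each library left out in turn, the 5 lower genes of MLC against day 18 became 0 to 7. The 3 and 4 of MesoT FCS became 2 to 10 and 2 to 5, and the 5 and 8 of MLC against MesoT FCS became 1 to 3 and 3 to 7. In MesoT-derived MLC, CCN1 and CCN2, immediate early genes of the same class, differed widely between replicates, at 80.4 and 1672 CPM and at 44.8 and 1787 CPM, and neither was called.

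The receptors include integrin chains, CD44, CD47 and other binding partners of the 8 proteins, 16 genes, 16 of them tested. In MesoT FCS against day 18, 5 were higher and 3 lower, with a median of 0.92, beside 13% higher and 14.4% lower among all tested genes. In MLC against MesoT FCS, 4 were higher and 7 lower (22.6% and 26.3% of all tested genes), and in MLC against day 18, 1 was higher and 3 lower (7.83% and 16.8%). With each library left out in turn the higher counts became 2 to 9, 3 to 4 and 0 to 3, and the lower ones 3 to 5, 3 to 7 and 1 to 7. ITGA5 and ITGB1, the chains of the classical fibronectin receptor, were both higher in MesoT FCS than at day 18. ITGA5 stood at 809 and 617 CPM against 201 and 77.7 (2.36 ± 0.46, edgeR adjusted p = 0.0180), and the call was lost without MesoT FCS replicate 1 (edgeR adjusted p = 0.0684). ITGB1 stood at 2067 and 1989 CPM against 823 and 284 (1.87 ± 0.49, edgeR adjusted p = 0.0372), a call lost without MesoT FCS replicate 1 or 2 (edgeR adjusted p = 0.110 and 0.101). Both were lower in MLC than in MesoT FCS (-3.38 ± 0.48 and -2.55 ± 0.50, edgeR adjusted p = 0.00313 and 0.00879), and for ITGB1 that call was lost without MLC replicate 1 or 2 (edgeR adjusted p = 0.0697 and 0.0697).

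Of 16 genes of matrix assembly and modification, 6 were higher and 0 lower in MesoT FCS than at day 18 (median 1.39, beside 13% and 14.4% of all tested genes), and 0 were higher and 11 lower in MLC than in MesoT FCS (median -1.99, beside 22.6% and 26.3%). Without single libraries these counts ran from 3 to 14 and from 4 to 10. LOXL2, a lysyl oxidase-like enzyme that cross-links collagen, stood at 1384 and 1489 CPM in MesoT FCS against 189.6 and 49.4 at day 18 (3.59 ± 0.63, edgeR adjusted p = 0.0138) and 47.3 and 55.9 in MLC (-4.80 ± 0.67 against MesoT FCS, edgeR adjusted p = 0.00292). The MesoT FCS libraries did not overlap with either group. TGM2, a transglutaminase that cross-links fibronectin, was the one named gene of this list that was also lower in MLC than at day 18, at 40.6 and 28.9 CPM against 275 and 76.1 (-2.34 ± 0.60, edgeR adjusted p = 0.0382). That call was lost without MLC replicate 1 or 2 (edgeR adjusted p = 0.162 and 0.220).

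The TGF-beta response list, 18 genes, holds targets of the pathway that the MLC medium inhibits. In MLC 1 was higher and 7 were lower than at day 18 (median -1.33, beside 7.83% and 16.8% of all tested genes), and 1 was higher and 12 were lower than in MesoT FCS (median -2.71, beside 22.6% and 26.3%). CCN2 and TGFBI stand in this list and among the other matricellular genes. The groups compared also differ in WNT3A and BMP4 or in serum and FGF2. The part of the inhibitor in these counts thus cannot be told apart and was not tested. Without single libraries the 7 became 0 to 13 and the 12 became 3 to 9. In MesoT-derived MLC 1 was higher and 4 were lower than in MesoT (median -1.49, beside 6.63% and 3.32% of all tested genes), and without single libraries the 4 became 0 to 6. In smooth muscle against MLC the 4 lists, in the order given, had 6, 8, 9 and 11 genes higher and 0, 3, 0 and 0 lower, beside 21.3% and 13% of all tested genes. Without MLC replicate 1 or 2 these higher counts became 2, 2, 0 and 0 to 1.

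Reads of genes that overlap the members could add to their counts, as no source used here says that counting kept the strands apart. In RefSeq gene models (GRCh38.p14) 9 genes overlap a member, 5 of which were matched to an ID of the files. The other 4 were not analysed here. ATIC, which overlaps FN1, had 1159 to 7953 counts in the one-library files, where FN1 had at least 84088, and 1823 to 2599 in the table, where FN1 had at least 10486. FN1-DT had 0 to 5 counts per library, FSIP1, which overlaps THBS1, 4 to 46, and THBS2-AS1 4 to 66. CLMAT3, which overlaps SPARC, had 26 and 30 counts in MLC and 1253 to 6536 in the other one-library files, beside at least 42122 of SPARC, but only 6 to 46 in the table. For the same day 18 libraries it ran from 1253 to 5255 in the one-library files and from 8 to 16 in the table. Whether the MLC files were counted like the other one-library files was not tested, which limits every comparison with MLC, including the shares of genes called. In the MLC libraries THBS2-AS1 had 66 and 46 counts beside 95 and 110 counts of THBS2.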

How the data were processed

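Human libraries of poly(A) RNA were analysed. Per the submitters' processing notes, which list TopHat2 2.0.13, Bowtie2 2.2.9, Subread 1.4.2, featureCounts and build hg19 without roles, the authors mapped and counted reads. The deposited values are raw counts per Ensembl gene ID, whole numbers, in 7 one-library files and 1 table of 6 human libraries. The sources used here give no strand setting. Counts were tested with edgeR 4.0.16 (quasi-likelihood, TMM, filterByExpr, R 4.3.3), 1 fit per set over all its groups, 3 residual degrees of freedom each, with Benjamini-Hochberg adjustment over all tested genes and a threshold of 0.05. A gene was called where it passed that threshold. CPM used TMM-scaled totals, and log2 levels a prior count of 2. All groups of a set share 1 estimate of the spread. Alternatives were RLE factors, no filter, DESeq2 1.42.0, a replicate block and leaving out each library. Scripts were tested on simulated counts.

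The 8 genes, the gene lists and the tests were chosen with earlier results of these data known. Of each list the text may name the 4 genes with the highest mean CPM over the one-library files. The alternatives for those list genes were added after seeing the data. For each member the 2 genes of highest correlation, whose mean log2 CPM was 3 or more, were noted. Gene symbols came from a table of Ensembl IDs and symbols, matched by ID for 52181 of 63677 and 46802 of 56299 IDs. No coordinates of GRCh38.p14 were joined to the counts. No per-sample column of the human table was left unused. The mouse libraries and the immunoprecipitation samples were not analysed here. Where replicates are 2, precision is set by their spread rather than by depth.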

Additional observations from a re-analysis of the deposited data

How the results depend on the processing

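Each group held 2 libraries (smooth muscle 1), which limits every comparison. RLE size factors changed no call of the named genes. With no filter on low counts 2 of the 8 genes were called in smooth muscle against day 18 and 3 against MesoT FCS. DESeq2 called 2 and 4 there, and 4 in MesoT-derived MLC, with 4614 genes in smooth muscle against day 18 (edgeR 1998) and 4325 in MesoT-derived MLC (edgeR 2219). Without filter or with DESeq2 no call of these genes was lost. The cause was not tested.

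Samples share replicate numbers. The correlation of replicate differences was 0.0666, 0.0730 and 0.0107 among day 18, MesoT FCS and MLC, and -0.00768 and -0.0636 with MesoT-derived MLC. Between day 18 and day 22 it was 0.557, so libraries of these days with the same number may be related. The main fits did not pair samples by number and took all MesoT libraries of the table as independent. This limits the p-values of MesoT-derived MLC against MesoT and of day 22 against day 18. With a replicate block the calls were 4718, 5863, 10614, 2800 and 0 genes, for MLC against day 18, MesoT FCS against day 18, MLC against MesoT FCS, MesoT-derived MLC and day 22. Under the block THBS2 in MLC against day 18 gave -3.51 (edgeR adjusted p = 0.0691) and SPP1 in MesoT-derived MLC -2.26 (0.0284), and 3 uncalled values changed sign: SPP1 in MesoT FCS (0.0848), MGP in MesoT-derived MLC (0.0527) and SPP1 at day 22 (0.0871).

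Leaving out 1 library leaves fewer samples and a lone library that is assumed to vary like the other groups. Over these the calls ran from 1714 to 6601 in MLC against day 18, 2783 to 7845 in MesoT FCS against day 18, 4962 to 8507 in MLC against MesoT FCS, 2339 to 4292 in smooth muscle against day 18, 1850 to 2150 in smooth muscle against MesoT FCS, 2505 to 2554 in smooth muscle against MLC and 0 to 2995 in MesoT-derived MLC. Of the 8 genes, in that order, 0 to 6, 0 to 6, 2 to 5, 2 to 4, 0 to 1, 0 to 1 and 0 to 3 were called. Values that changed sign in MLC against day 18 ran from -0.55 to 0.81 (POSTN) and from -1.002 to 0.96 (SPARC). Values that changed sign in MesoT FCS against day 18 ran from -0.0755 to 2.79 (POSTN) and from -0.69 to 0.48 (SPP1). In MLC against MesoT FCS POSTN ran from -2.66 to 0.20. Values that changed sign in smooth muscle against day 18 ran from -1.47 to 0.72 (THBS1), from -0.61 to 2.71 (THBS2) and from -0.75 to 1.17 (TNC). Values that changed sign in MesoT-derived MLC ran from -0.77 to 3.60 (CCN1), from -2.63 to 2.72 (CCN2), from -0.93 to 0.47 (MGP) and from -1.82 to 0.0255 (THBS2). Values that changed sign in day 22 against day 18 ran from -1.49 to 0.60 (FN1), from -1.31 to 2.09 (MGP), from -0.62 to 0.46 (POSTN), from -1.42 to 0.54 (SPARC), from -0.52 to 0.58 (SPP1), from -1.94 to 0.63 (THBS1), from -2.26 to 1.50 (THBS2) and from -1.86 to 0.18 (TNC). Calls lost this way are given beside each gene above.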
